A study of Mus musculus with 9 samples.

Results

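BFU-E (the burst-forming erythroid progenitor, an early stage of the red cell lineage) given dexamethasone and DMOG together were compared with BFU-E given water, and each gene's joint log2 change was set against the sum of its changes with the single agents. Of the 9 libraries in the series, the 4 from cells sorted for low CD71 and low CD24a entered the comparison: water, dexamethasone alone (Dex, a synthetic glucocorticoid, 100 nM), dimethyloxalylglycine alone (DMOG, a cell-permeable analogue of 2-oxoglutarate that inhibits the prolyl hydroxylases, 333 µM), and both agents at those doses. Genes entered when at least 1 of the 4 libraries held 1 or more RPKM (the read count scaled to transcript length in kilobases and to library depth in M, or mega, reads), which left 9875 of the 19840 gene names in the files. Of these, 9425 were at 1 or more in each of the 4 libraries, 144 in 1 library, and 21 in the library with both agents alone.

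The cells in all 4 libraries came from fetal liver of C57BL/6 embryos at day 13.5 to 14.5, with no transgene or deletion named. They were the 10% with the lowest CD71 and CD24a among Kit-positive cells that lacked Ter119, CD34, CD41 and markers of B, T and myeloid cells. After 4 h in serum-free medium with stem cell factor (100 ng/mL), IGF-1 (40 ng/mL) and erythropoietin (2 U/mL), the sorted cells were divided, 25% to each arm, and RNA was taken 4 h later. All arms, water included, therefore carried these growth factors. Each condition is 1 library, so the differences among the 4 have no replicate check, and in bulk RNA a change in the share of a cell type and a change in RNA per cell cannot be told apart. Recovered depth was 18.4 M reads for water, 19.0 M for Dex, 40.1 M for DMOG and 52.7 M for both. At these depths the water and Dex libraries set most of the counting error. For water, Dex and DMOG a clearly different depth scored nearly as well, so the depths and the intervals built on them are approximate.

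Dex binds the glucocorticoid receptor (Nr3c1), which enters the nucleus and acts on genes near its binding sites. Glucocorticoids are known to prolong the self-renewal of BFU-E. Prolyl hydroxylases of the Egln family use oxygen and 2-oxoglutarate to mark the alpha subunits of the hypoxia-inducible factors (HIF) for degradation. When they are inhibited, HIF alpha accumulates, pairs with Arnt and binds sites with the core ACGTG near genes of glycolysis, glucose uptake and mitophagy, and near Egln3 itself. Inhibitors of these enzymes are known to add to the effect of glucocorticoids on BFU-E colony growth, which is the setting of the question asked here at the level of single transcripts.

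Levels below are RPKM divided by 1 scaling factor per library. Changes are differences of log2(level + 1), which understates the change of low genes. The departure is the joint change minus the sum of the Dex change and the DMOG change, all against the same water library. A departure of 0 means that fold changes of level + 1 multiply, and a negative one that level + 1 with both agents is below that product. The sum level (Dex + DMOG - water) and the product level (Dex × DMOG / water) are also given on the linear scale, since additivity depends on the scale. In low genes the departure and the ratio to the product level can differ in size and sign. Tph1, for example, had a departure of -0.05 and stood at 0.44 times the product level. The joint change equals the sum of a Dex part (the mean of the Dex changes without and with DMOG) and a DMOG part (the mean of the DMOG changes without and with Dex). With equal error in the 4 libraries, choosing genes by these parts or by the joint change favours neither sign of the departure, whereas choosing them by 1 single-agent change does. At the recovered depths the errors were not equal, since water and Dex had fewer reads. This tilts genes chosen for a high Dex part or joint change towards departures below 0. Genes chosen for a low one are tilted towards departures above 0.

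Most genes lay close to the sum of the single-agent changes. The median departure over the 9875 genes was 0.00 (SD 0.20 across genes), and 9651 genes (97.7%) lay within 0.5 of 0 on the log2 scale. Past 2-fold, 12 genes (0.122%) lay above the sum and 8 (0.081%) below it. These counts moved with the pseudocount (45 and 36 with 0.1 in place of 1) and with the reading of an exact 1 (136 and 182 where it was kept as deposited). With both agents 73 genes (0.739%) were at least 2-fold higher than in water and 33 (0.334%) at least 2-fold lower. For Dex alone those counts were 58 (0.587%) and 19 (0.192%), and for DMOG alone 17 (0.172%) and 8 (0.081%). In no gene did the Dex change pass 2-fold one way without DMOG and the other way with it, and the same held for the DMOG change without and with Dex. Across the 9875 genes the Dex change without DMOG and the Dex change with DMOG, which share no library, had a Pearson r of 0.67, and the DMOG changes without and with Dex had 0.35. Genes are not independent replicates, so these describe the 4 libraries only.

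A test was possible by adding the 2 libraries of BFU-E sorted on CD71 alone (water and Dex), whose Dex difference gives the 1 residual degree of freedom. With limma's moderated test on 9637 genes and Benjamini-Hochberg adjustment, 31 genes rose (0.322%) and 4 fell (0.0415%) with both agents against water, and 682 genes had an unadjusted p under 0.05 (7.08%). All 31 and all 4 were past 2-fold within the 4 libraries, but the test uses the same joint and water libraries, so this adds no support. For the departure, the same limma fit called 0 genes above and 0 below at an adjusted p under 0.05, with 166 genes at an unadjusted p under 0.05 (1.72%). The smallest adjusted p of a departure was 0.997, and the median standard error of a departure was 0.20 on the log2 scale. In that fit the Dex change without DMOG is shared by both sorts, so neither its joint change nor its departure is limited to the 4 libraries. Its error comes from the difference in the Dex change between the 2 sorts, which also holds any effect of the sort on that change. For the departure, the 1.72% is below the share of 0.05 that a test gives where no gene departs. The 0 calls therefore do not show that departures were absent. The joint calls changed with the settings of the fit. With no filter (15605 genes) limma called 0 genes for the joint change (1095 at an unadjusted p under 0.05), and the prior degrees of freedom were 0.88 in place of 4.75. Without the mean-variance trend limma called 17 higher and 0 lower (678 unadjusted). The cause of these changes was not tested. Without scaling of the 6 libraries limma called 111 higher and 53 lower.

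**Figure D1:**
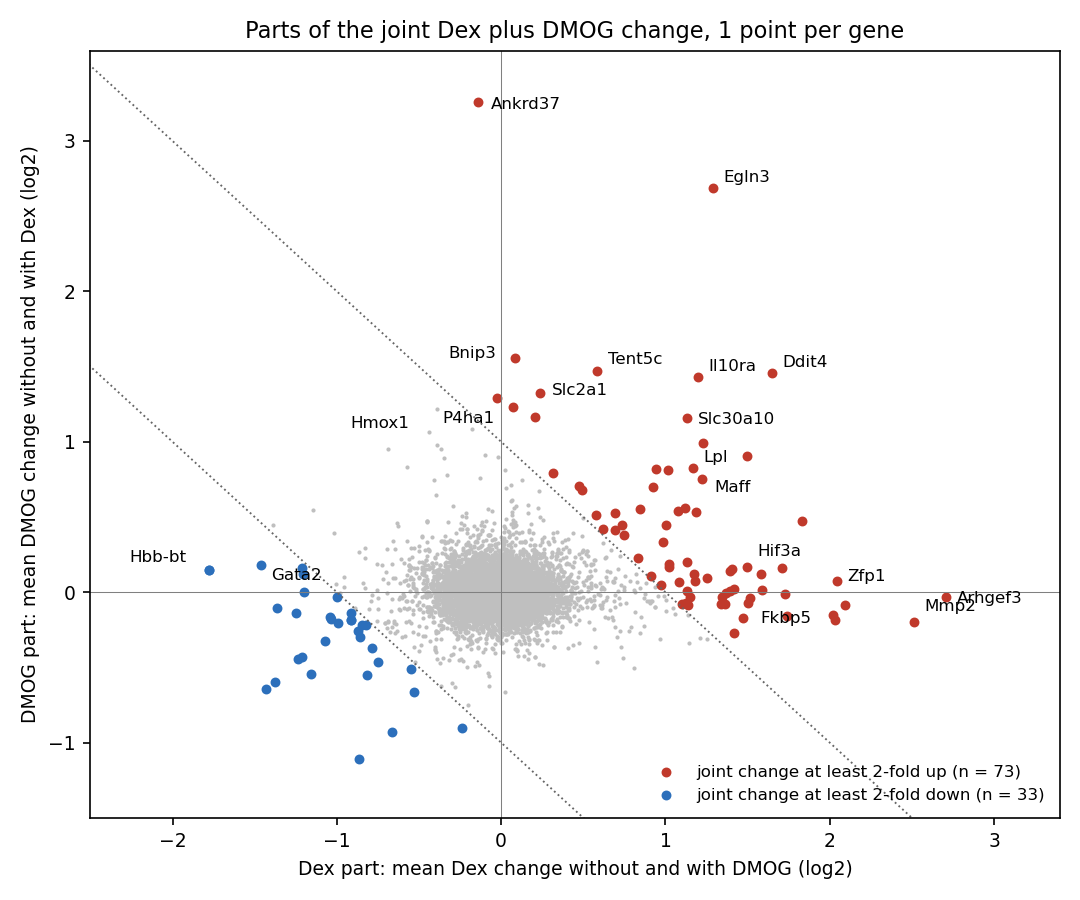
Each point is 1 of the 9875 genes, with its Dex part on the horizontal and its DMOG part on the vertical axis, both in log2 units, and the dotted lines mark a joint change of 2-fold up or down. Of the 73 genes past 2-fold up (red), 46 passed through the Dex part alone, 7 through the DMOG part alone and 4 through both (Egln3, Ddit4, Il10ra and Slc30a10), and the blue points are the 33 past 2-fold down.

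Egln3, Ddit4, Il10ra and Slc30a10 were the 4 genes whose Dex part and DMOG part both passed 2-fold up (0.587% and 0.142% of all genes passed for the Dex part and the DMOG part). All 4 rose with both agents in the limma test, which uses the same water and joint libraries that placed them in this group and so adds no support to it. In each of them the level with both agents was above the sum level and below the product level, and the 95% counting interval of the ratio to the product excluded 1. Their median level was 1.44 times the sum and 0.58 times the product, and their median departure was -0.40. With a pseudocount of 0.1 in place of 1 the departures of the 4 genes were farther below 0, at -0.77 for Egln3, -0.35 for Ddit4, -1.79 for Il10ra and -0.71 for Slc30a10. With that pseudocount 8 genes passed 2-fold in both parts, and the median departure of those 8 was -0.053.

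Egln3 encodes the prolyl hydroxylase PHD3, a HIF target and one of the enzymes that DMOG inhibits. Its level was 1.72 in water, 6.64 with Dex, 19.1 with DMOG and 41.7 with both. The library with both agents was the highest of the 4 and each single agent was above water. The joint change was 3.97 on the log2 scale, the highest of all genes, and the sum of the single changes was 4.38. On the linear scale the level with both was 1.73 times the sum level of 24.1 and 0.56 times the product level of 74.1, with a counting interval of 0.44 to 0.72. In limma the joint change was 4.20 ± 0.32 (SE, 6 libraries, adjusted p = 0.023), and the departure of -0.92 ± 0.42 did not pass (adjusted p = 0.997).

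Ddit4 encodes REDD1, an inhibitor of mTORC1 signalling that both glucocorticoids and hypoxia are known to induce. Its level was 3.59 in water, 14.4 with Dex, 12.4 with DMOG and 38.5 with both. Each single agent gave a similar level, and the library with both agents was the highest. The level with both was 1.66 times the sum level of 23.2 and 0.77 times the product level of 49.9 (counting interval 0.62 to 0.96). Its departure of -0.19 was the smallest in size of the 4 genes.

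Il10ra encodes the ligand-binding chain of the interleukin 10 receptor. Its level was 0.58 in water, 4.06 with Dex, 4.94 with DMOG and 8.80 with both. Here the level with both agents was 1.05 times the sum level of 8.41, and 0.26 times the product level of 34.4 (counting interval 0.18 to 0.37). The departure of -0.95 was the lowest of the 4, and the water level on which the product rests was under 1 RPKM. Slc30a10, a manganese exporter, was at 1.48 in water, 5.23 with Dex, 5.34 with DMOG and 11.2 with both. Its level with both agents was 1.23 times the sum level and 0.59 times the product level (counting interval 0.49 to 0.71).

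Tent5c, a cytoplasmic poly(A) polymerase, was close to this pattern with a Dex part of 0.58 and a DMOG part of 1.47. It was at 2.75 in water, 6.47 with Dex, 12.8 with DMOG and 14.6 with both. The library with both agents exceeded the DMOG library by little, and its level was 0.88 times the sum and 0.48 times the product (counting interval 0.42 to 0.56). Tent5c rose with both agents (limma, log2 change 2.10 ± 0.16 SE, adjusted p = 0.023). Its limma departure was -0.96 ± 0.22 (unadjusted p = 0.0049, adjusted p = 0.997).

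**Figure D2:**
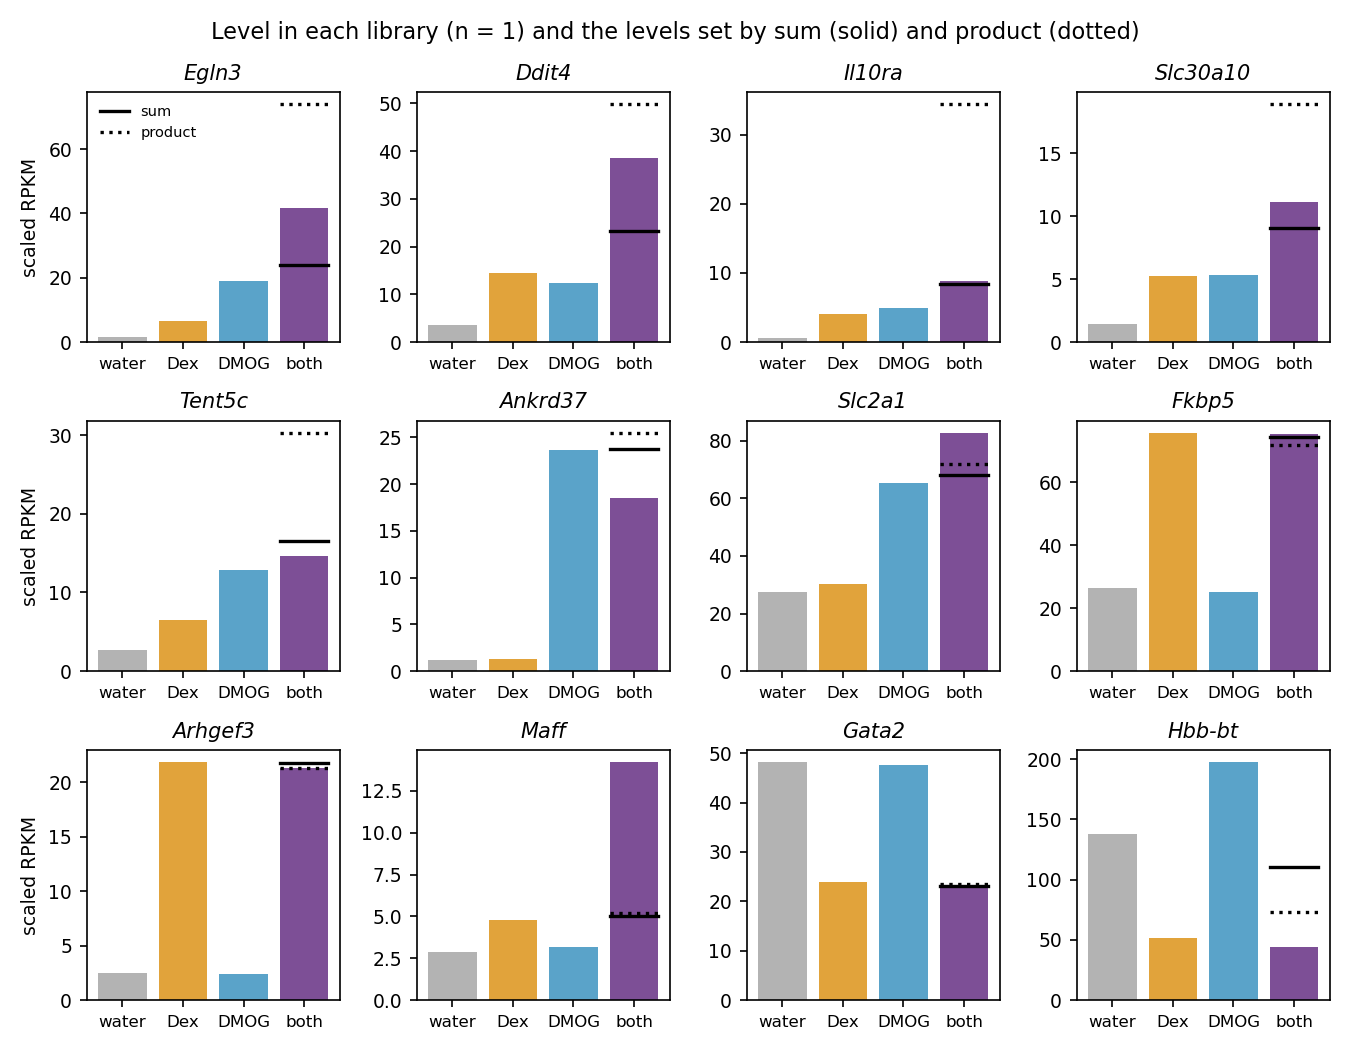
Bars give the scaled RPKM of 12 genes in the 4 libraries (1 library each, no error bars), each panel on its own axis from 0, and over the bar with both agents the solid line marks Dex + DMOG - water and the dotted line Dex × DMOG / water. For Egln3, Ddit4 and Slc30a10 the bar ends between the lines, for Fkbp5, Arhgef3 and Gata2 it ends close to both of them, for Maff and Slc2a1 above both, and for Hbb-bt below both.

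The upstream sequence of these genes was read for the HIF core ACGTG and for TGTTCT, a hexamer that the glucocorticoid receptor binds, on both strands; the letters of the 2 motifs do not overlap each other. The windows are the 250 bases before the annotated start, written 5′ to 3′ on the gene's strand, from RefSeq (GRCm38.p6, not the mm9 build of the files), with the HIF core on either strand in capitals. They are shown because the 3 genes responded to both agents and Ankrd37 to DMOG alone. The table had no entry for Il10ra.
Egln3 (chr12:54203875-54204124, minus strand): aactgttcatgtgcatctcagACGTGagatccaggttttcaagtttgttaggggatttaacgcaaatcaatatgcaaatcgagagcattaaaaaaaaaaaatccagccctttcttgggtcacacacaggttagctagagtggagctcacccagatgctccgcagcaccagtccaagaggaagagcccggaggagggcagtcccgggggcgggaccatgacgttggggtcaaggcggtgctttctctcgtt
Ddit4 (chr10:59951771-59952020, minus strand): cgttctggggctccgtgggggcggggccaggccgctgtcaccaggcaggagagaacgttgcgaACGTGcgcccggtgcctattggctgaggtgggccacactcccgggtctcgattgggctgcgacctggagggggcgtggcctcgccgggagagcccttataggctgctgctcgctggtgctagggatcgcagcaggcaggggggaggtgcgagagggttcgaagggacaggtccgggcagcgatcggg
Slc30a10 (chr1:185454598-185454847, plus strand): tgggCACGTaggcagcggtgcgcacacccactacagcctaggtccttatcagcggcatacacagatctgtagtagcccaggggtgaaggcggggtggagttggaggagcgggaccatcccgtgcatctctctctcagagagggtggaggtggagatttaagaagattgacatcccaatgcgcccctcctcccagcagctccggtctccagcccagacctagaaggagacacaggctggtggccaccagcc
Ankrd37 (chr8:45999851-46000100, minus strand): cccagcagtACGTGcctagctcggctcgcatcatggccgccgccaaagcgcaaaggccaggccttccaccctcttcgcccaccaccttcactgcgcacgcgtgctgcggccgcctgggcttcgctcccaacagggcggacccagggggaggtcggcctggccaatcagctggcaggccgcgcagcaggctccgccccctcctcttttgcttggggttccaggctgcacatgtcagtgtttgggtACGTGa

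Egln3, Ddit4 and Slc30a10 each held 1 HIF core, 229, 187 and 246 bases before the start, and Ankrd37 held 2, at 241 and 6 bases. None of the 4 windows held TGTTCT. The core was neither in every gene with a DMOG part past 2-fold nor limited to them: the window of Tent5c held 0, and that of Fkbp5, whose DMOG part was -0.04, held 2 overlapping matches, 169 and 168 bases before the start. Among genes with a DMOG part of at least 2-fold up, 7 of the 11 with a window held ACGTG (63.6%). The core stood in 23.5% of the windows of all genes at 1 or more RPKM and in 16.6% of all 27025 windows. Of the 42 windows of genes with a Dex part past 2-fold up, 10 held ACGTG (23.8%) and 3 held TGTTCT (7.14%), and the hexamer stood in 10.1% of the windows of genes at 1 or more RPKM. A match describes letters in the window and is no sign of binding.

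The DMOG part passed 2-fold up in 14 genes (0.142%) and down in 1, the RNase P RNA gene Rpph1 (0.0101%). The 14 were Ankrd37, Egln3, Bnip3, Tent5c, Ddit4, Il10ra, Slc2a1, Narf, P4ha1, Bhlhe40, Ak4, Slc30a10, Kdm3a and Hmox1. Of these, 10 were on the list of HIF targets outside glycolysis, which was chosen with earlier results of these data known. Their median departure was -0.19. Counting intervals of the ratio to the product lay below 1 in 6 of the 14 and above 1 in 2, beside 17.2% and 17.7% of all 9651 genes with an interval.

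Ankrd37, an ankyrin repeat protein and a classic HIF target, was at 1.24 in water, 1.34 with Dex, 23.6 with DMOG and 18.5 with both. The 2 libraries with DMOG were high and the 2 without it low, which follows from choosing genes by a high DMOG part. The level of Ankrd37 with both agents was 0.72 times the product, with a counting interval of 0.38 to 1.38 that includes 1. Slc2a1, the glucose transporter GLUT1, was at 27.5 in water, 30.2 with Dex, 65.4 with DMOG and 82.8 with both. The library with both agents was the highest, at 1.15 times the product (counting interval 1.07 to 1.24) and 1.21 times the sum level. Both genes rose with both agents (limma adjusted p = 0.028 for Ankrd37 and 0.040 for Slc2a1).

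Narf, a nuclear prelamin A binding protein, was at 18.9 in water, 18.9 with Dex, 48.8 with DMOG and 47.0 with both. The 2 libraries with DMOG were close to each other and so were the 2 without it, and the departure was -0.05. The adenylate kinase Ak4 was at 7.29, 8.36, 17.2 and 20.5 in the same order and P4ha1, a collagen prolyl hydroxylase subunit, at 5.97, 5.91, 14.4 and 16.2. Counting intervals of the ratio to the product included 1 for Narf, Ak4 and P4ha1, so no departure was detectable in them at this depth. Bnip3, a mitophagy receptor, was at 3.08 in water, 3.54 with Dex, 11.6 with DMOG and 11.7 with both, but 73.8% of its sequence is shared with other genes or pseudogenes.

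In 3 of the 14 genes, Hmox1, Kdm3a and Bhlhe40, the joint change stayed under 2-fold, and in each of them the Dex part was negative. Hmox1, heme oxygenase 1, was at 4.59 in water, 3.41 with Dex, 11.5 with DMOG and 7.65 with both. Kdm3a, a histone demethylase, was at 9.88 in water, 9.44 with Dex, 24.0 with DMOG and 19.4 with both. For Kdm3a the level with both agents was 0.84 times the product (counting interval 0.76 to 0.94). Bhlhe40, a bHLH repressor, was at 3.92 in water, 2.37 with Dex, 9.30 with DMOG and 7.73 with both, and lay above the product at 1.38 (counting interval 1.09 to 1.74). Vegfa, the angiogenic growth factor, had the same order at lower size, with 10.4 in water, 9.68 with Dex, 16.9 with DMOG and 12.8 with both, and a ratio to the product of 0.81 (counting interval 0.72 to 0.92). The limma joint changes of Hmox1, Kdm3a, Bhlhe40 and Vegfa did not pass (adjusted p = 0.384, 0.111, 0.427 and 0.830).

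The Dex part passed 2-fold up in 58 genes (0.587%) and down in 20 (0.203%). The median departure of the 58 was -0.10, with 38 of 58 below 0 (4924 of all 9875 genes). That is the sign towards which the lower recovered depth of water and Dex tilts this choice. The counting interval lay below 1 in 18 and above 1 in 6 of the 54 with an interval (17.2% and 17.7% of all genes). Their median Dex change was 1.40 without DMOG and 1.28 with DMOG. In the 46 of them that reached a joint change of 2-fold through the Dex part alone, the median DMOG part was 0.04.

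Arhgef3, a guanine nucleotide exchange factor, was at 2.48 in water, 21.9 with Dex, 2.42 with DMOG and 21.3 with both. The 2 libraries with Dex were high and the 2 without it low, which follows from choosing genes by a high Dex part. The level of Arhgef3 with both agents was 0.996 times the product (counting interval 0.81 to 1.21). Fkbp5, a co-chaperone of the glucocorticoid receptor and a classic Dex target, was at 26.6, 75.8, 25.2 and 75.5 in the same order. Its ratio to the product was 1.05, with a counting interval of 0.98 to 1.12. Arhgef3 and Fkbp5 rose with both agents (limma, log2 change 2.583 ± 0.165 and 1.499 ± 0.133 SE, both at adjusted p = 0.023).

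Hif3a, a HIF alpha subunit on both the glucocorticoid and the HIF list, was at 21 in water, 64.3 with Dex, 25.0 with DMOG and 68.8 with both. The Dex libraries were high with or without DMOG, and its DMOG part was 0.17. Mt2, a metal-binding metallothionein, was at 52.6 in water, 120.0 with Dex, 81.1 with DMOG and 171.5 with both. Each agent was above water, the library with both agents was the highest, and it stood at 1.16 times the sum level and 0.93 times the product (counting interval 0.82 to 1.05). Of the Mt2 sequence, 55.0% is shared with other genes or pseudogenes. Both Hif3a and Mt2 rose (limma adjusted p = 0.023 each).

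Other genes that rose through the Dex part were Hopx, a homeodomain protein without DNA binding, Itgb3, an integrin chain of megakaryocytes, and the metalloproteinase Mmp2. Hopx was at 3.49 in water, 19.0 with Dex, 3.43 with DMOG and 17.0 with both. Itgb3 was at 3.501, 18.0, 3.10 and 15.2 in that order. Mmp2 was at 0.088 in water, 6.22 with Dex, 0.10 with DMOG and 4.43 with both, and its counting interval around the product (0.17 to 1.82) was the widest among the 33 genes in the plot of ratios. The interval also included 1 for Hopx (0.66 to 1.23) and Itgb3 (0.83 to 1.09).

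Smaller Dex changes with DMOG present were seen at Per1, a clock repressor, and Tsc22d3, which encodes the glucocorticoid mediator GILZ. Per1 was at 4.46 in water, 14.4 with Dex, 4.93 with DMOG and 13.1 with both, at 0.82 times the product (counting interval 0.72 to 0.94). Tsc22d3 was at 6.76, 21.1, 7.18 and 17.9 in the same order, at 0.80 times the product (counting interval 0.67 to 0.95). The joint limma changes of Per1 and Tsc22d3 missed the threshold (adjusted p = 0.097 and 0.059). Zfp36l2, an RNA-binding protein needed for BFU-E self-renewal, was at 37.4 in water, 78.1 with Dex, 32.9 with DMOG and 78.4 with both. For Zfp36l2 the ratio to the product was above 1, at 1.14 (counting interval 1.08 to 1.21), and the joint change missed the threshold (limma adjusted p = 0.068).

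**Figure D3:**
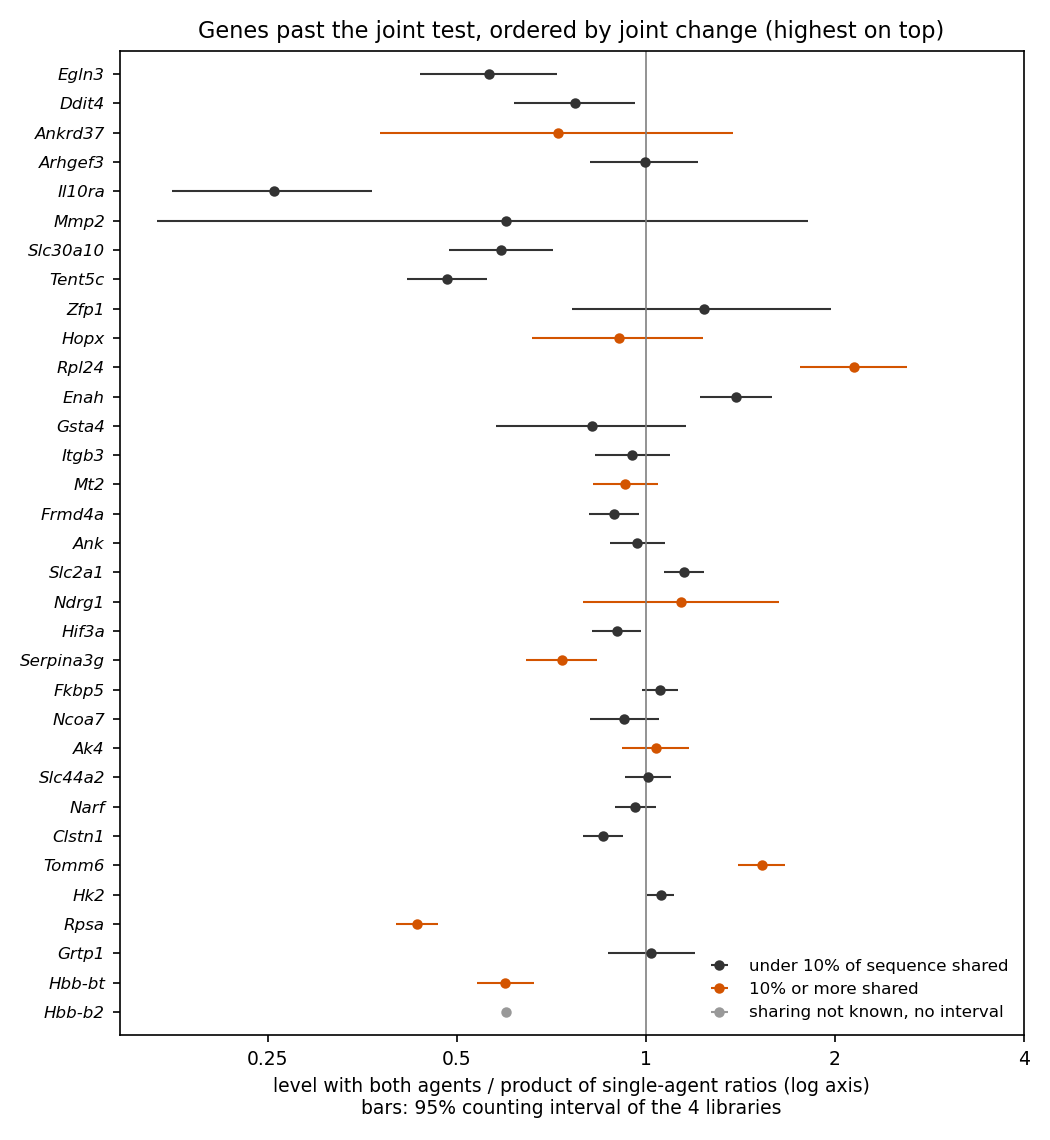
For 33 genes with a symbol past the limma joint test, ordered by joint change, points give the level with both agents over the product of the single-agent ratios on a log axis, and bars the 95% counting interval of the 4 libraries. The interval lay below 1 in 11 and above 1 in 5 of the 32 genes with an interval, and orange points are genes with 10% or more of their sequence shared.

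Among 34 of the genes past the joint test, 22 had under 10% of their sequence shared with another gene or pseudogene. In those 22 the counting interval was below 1 in 8 (Egln3, Ddit4, Il10ra, Slc30a10, Tent5c, Frmd4a, Hif3a and Clstn1) and above 1 in 3 (Enah, Slc2a1 and Hk2). These intervals cover counting error only: over all genes 34.9% excluded 1, which is more spread than counting alone gives.

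In 22 of the 73 genes past 2-fold up with both agents, neither single agent reached 2-fold against water. The rule of this class asks for low single-agent changes and so favours departures above 0, and 20 of the 22 were above 0. Counting intervals of the ratio to the product lay above 1 in 9 and below 1 in 1 of the 19 with an interval. The level with both agents was above the sum level in 21 of the 22. Atp1b1 (0.11, 0.67, 0.14 and 2.04 in water, Dex, DMOG and both) and P4ha2 (0.31, 0.74, 0.67 and 1.78) passed the 1 RPKM filter through the library with both agents alone. For them the filter also favours a level above the sum.

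Maff, a small MAF transcription factor of the bZIP family, was at 2.88 in water, 4.77 with Dex, 3.16 with DMOG and 14.2 with both. The library with both agents stood alone above the other 3, at 2.72 times the product level of 5.23 (counting interval 2.04 to 3.61). Its departure was 1.30, and none of its sequence was shared. The limma joint change of Maff missed the threshold (adjusted p = 0.14).

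Arl4a, a small GTPase, was at 9.89 in water, 17.7 with Dex, 9.50 with DMOG and 24.2 with both, at 1.42 times the product (counting interval 1.27 to 1.59). Lpl, lipoprotein lipase, was at 0.65 in water, 2.04 with Dex, 1.40 with DMOG and 5.57 with both. Ndrg1, a hypoxia-induced stress protein, was at 1.04, 2.46, 1.96 and 5.29 in the same order. For Lpl and Ndrg1 both parts were positive and the counting interval included 1 (0.88 to 1.82 and 0.79 to 1.63). Hk2, a hexokinase that starts glycolysis, was at 34.4 in water, 41.9 with Dex, 58.5 with DMOG and 75.2 with both, at 1.06 times the product (counting interval 1.005 to 1.11). Of these 4 genes Ndrg1 and Hk2 rose with both agents (limma adjusted p = 0.049 each), while Arl4a (0.132) and Lpl (0.059) missed the threshold.

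Of the 33 genes past 2-fold down with both agents (0.334%), 16 of the 27 with known sharing had 10% or more of their sequence in common with other genes. The median departure was -0.29 in those 16 and 0.22 in the 11 with under 10%. Past the limma joint test were Hbb-bt and Hbb-b2, which encode adult beta globin, Rpsa, a ribosomal protein, and Grtp1, a TBC-domain protein of the Rab GTPase-activating family.

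Hbb-bt was at 138.3 in water, 51.4 with Dex, 197.8 with DMOG and 43.9 with both. It was above water with DMOG alone and lowest with both agents, and the level with both was 0.60 times the product (counting interval 0.54 to 0.66). Hbb-b2 had nearly the same values (141.9, 52.6, 203.2 and 45.1), and 58.9% of the Hbb-bt sequence is shared, so the 2 genes may hold the same reads. Both fell with both agents (limma, log2 change -1.58 ± 0.14 SE for each, adjusted p = 0.023). The adult alpha globin gene Hba-a1 was at 27.1 in water, 37.7 with Dex, 23.9 with DMOG and 23.0 with both, which is another order of the libraries than for beta globin. Within the 4 libraries the fall of Hba-a1 from 27.1 in water to 23.0 with both was small beside that of Hbb-bt. Its limma joint change was -1.57 ± 0.41 (SE), from the fit that takes the Dex change from both sorts. That value does not describe the 4 libraries, and it missed the threshold (limma adjusted p = 0.347). Of the Hba-a1 sequence, 70.7% is shared. Grtp1 was at 14.6 in water, 5.47 with Dex, 12.9 with DMOG and 4.96 with both, and its ratio to the product was 1.02 (counting interval 0.87 to 1.20).

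Gata2, a transcription factor of early progenitors, was at 48.2 in water, 23.8 with Dex, 47.5 with DMOG and 23.1 with both. The 2 Dex libraries were low and close to each other, the ratio to the product was 0.99 (counting interval 0.92 to 1.06), and the joint change missed the threshold (limma adjusted p = 0.335). Thbs1, a matrix glycoprotein, was at 15.9, 6.24, 15.7 and 6.35 in the same order, and Cited4, a transcriptional co-activator, at 28.3, 13.99, 26.6 and 11.7. Counting intervals around the product included 1 for both Thbs1 and Cited4, and their limma joint changes missed the threshold (adjusted p = 0.097 and 0.058). Just inside and outside the 2-fold rule stood Syne1 with a joint change of 1.02 and Actg1 with 0.99 on the upper side, and Gata2 with -1.03 and Rps28 with -0.999 on the lower.

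**Figure D4:**
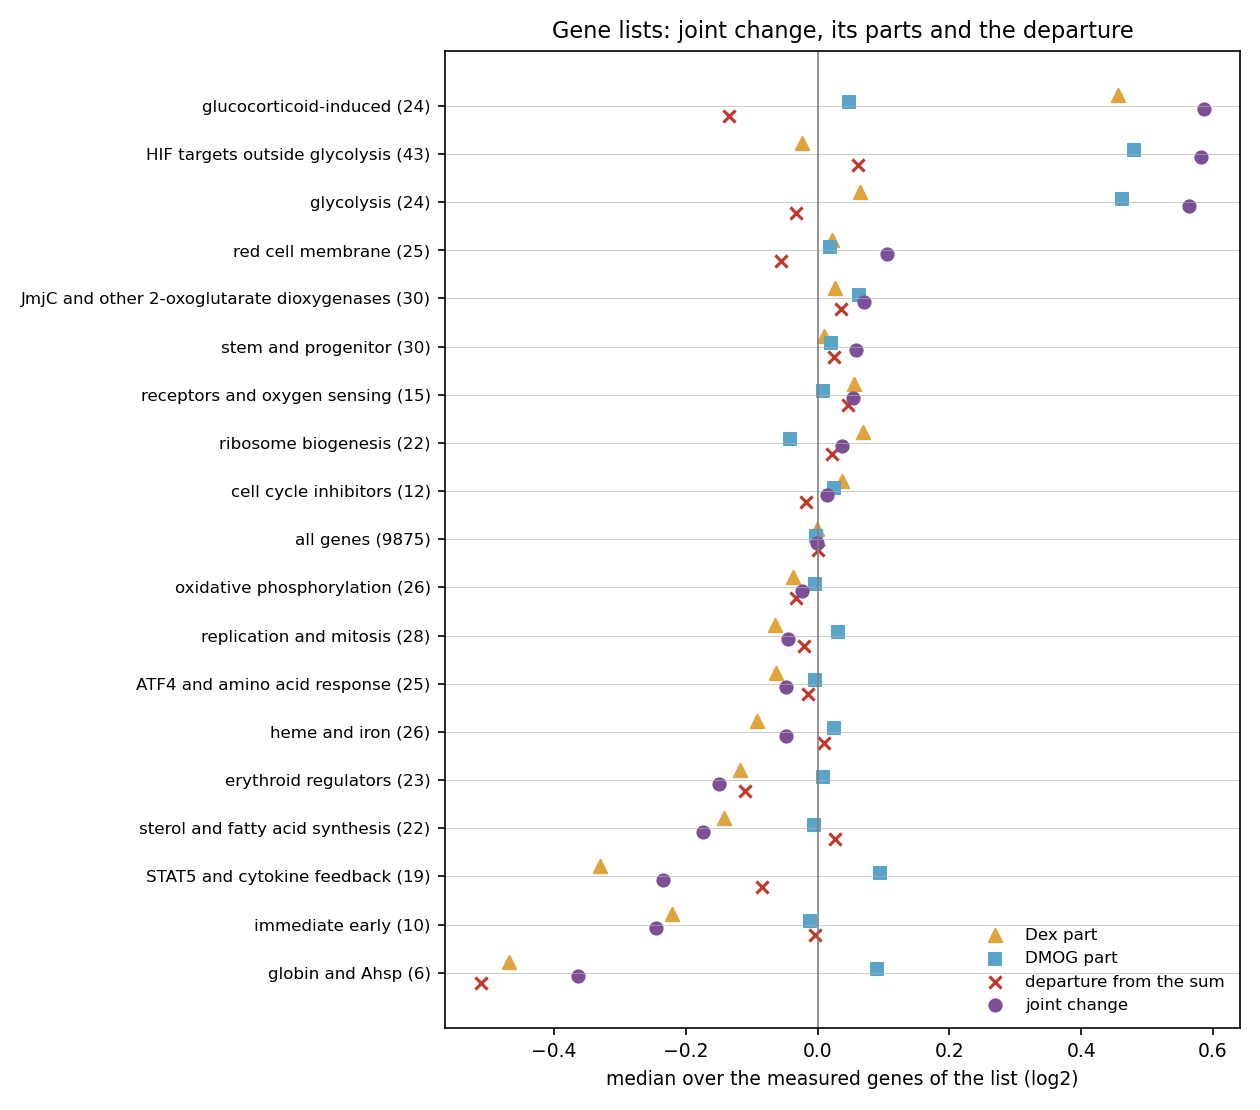
For each gene list with at least 6 measured members (their number in brackets), symbols give the median over members of the Dex part, the DMOG part, the joint change and the departure, in log2 units. The glucocorticoid list lies to the right through the Dex part, and the HIF target and glycolysis lists through the DMOG part. The medians of most other lists lie within 0.2 of 0.

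Gene lists were described by counts, without a test of the list. The lists and their members were chosen with earlier results of these data known, so their counts are no independent support. Over all genes 0.739% were at least 2-fold higher and 0.334% at least 2-fold lower with both agents, limma called 0.322% higher and 0.0415% lower (7.08% at an unadjusted p under 0.05), and counting intervals lay below 1 in 17.2% and above 1 in 17.7%. The counts of the lists below are read against these shares. Of 24 measured glucocorticoid-induced genes, 8 were at least 2-fold higher with both agents and 0 lower, of which Ddit4, Fkbp5, Mt2 and Hif3a passed the limma test. The median joint change was 0.59 (all genes 0.00), with a median Dex part of 0.46 and DMOG part of 0.05. The median departure of the list was -0.13, with counting intervals below 1 in 9 members and above 1 in 3 of 24 (17.2% and 17.7% of all genes). Nfkbia, an inhibitor of NF-kappa-B, was the member farthest above the sum, at 3.36 in water, 3.07 with Dex, 3.405 with DMOG and 4.67 with both (1.497 times the product, counting interval 1.06 to 2.11).

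Of 43 measured genes on the list of HIF targets outside glycolysis, 12 were at least 2-fold higher with both agents and 0 lower, and 9 passed the limma test. The 12 include Hk2, which also stands on the glycolysis list. They also include P4ha2, which passed the 1 RPKM filter through the library with both agents alone and was not tested by limma. The median joint change was 0.58, with a median Dex part of -0.02 and DMOG part of 0.48, and the median departure was 0.06. Counting intervals lay above 1 in 9 members and below 1 in 5 of 43, near the shares over all genes (17.7% and 17.2%). Of 24 glycolysis genes, 2 (Slc2a1 and Hk2) were past 2-fold up and passed the test, and 22 of 24 had a joint change above 0 (4926 of all 9875 genes). Pgk1, phosphoglycerate kinase, was at 10.0, 9.57, 17.3 and 18.7, and Slc16a3, a lactate exporter, at 48.6, 45.8, 93.6 and 86.1 in water, Dex, DMOG and both. Neither Pgk1 nor Slc16a3 passed the joint test (limma adjusted p = 0.134 and 0.153). The lists overlap: Ddit4 and Hif3a stand on the glucocorticoid and the HIF list, and Hk2, Pdk1 and Slc16a3 on the HIF and the glycolysis list.

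Of 23 erythroid regulators 0 were past 2-fold either way with both agents, and limma called 0 of the 22 tested (7 at an unadjusted p under 0.05). Their median departure was -0.11, 20 of 23 lay below 0 (4924 of all 9875 genes), and counting intervals were below 1 in 10 and above 1 in 0 (17.2% and 17.7% of all genes). With 0.739% of all genes past 2-fold up and 0.334% down, 0 of 23 is near the background. Trim58, an E3 ligase of late erythroblasts, departed most, at 6.69 in water, 15.4 with Dex, 7.08 with DMOG and 10.3 with both, or 0.64 times the product (counting interval 0.53 to 0.76). The key factors Gata1 and Klf1 lay close to the product, at 0.93 (counting interval 0.88 to 0.97) and 0.91 (0.85 to 0.98). Lmo2, a partner of Gata1, was at 197.1, 120.5, 197.7 and 113.8 in water, Dex, DMOG and both.

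Of 25 red cell membrane genes 2 were past 2-fold up, Cd24a and Rhag, and 0 passed the limma test (7 at an unadjusted p under 0.05). Cd24a, which encodes the antigen used with CD71 for the sort, was at 119.0 in water, 314.1 with Dex, 140.1 with DMOG and 303.4 with both. Rhag, a gas channel of the Rhesus complex, was at 61.6, 141.3, 61.0 and 128.8 in the same order. Both lay below the product, at 0.82 (counting interval 0.79 to 0.86) and 0.92 (0.87 to 0.97). Of 26 heme and iron genes 0 were past 2-fold with both agents, and Fth1, ferritin heavy chain, was the member that differed most, at 2280 in water, 4127 with Dex, 2122 with DMOG and 4092 with both.

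Of 30 stem and progenitor genes 1 was past 2-fold up and 2 down, and of 19 genes of STAT5 and cytokine feedback 2 were up and 3 down, with 0 limma calls in either list (13 of 28 and 9 of 19 tested at an unadjusted p under 0.05, beside 7.08% of all genes). Kit, the receptor for stem cell factor, was at 50.3 in water, 76.8 with Dex, 57.7 with DMOG and 92.7 with both, at 1.051 times the product (counting interval 1.008 to 1.096). Each agent was above water for Kit, and the library with both was the highest. Socs1, a cytokine feedback inhibitor, was at 1.76, 6.14, 2.00 and 6.98 in the same order. The HIF subunit genes Hif1a and Arnt differed little: Hif1a was at 21.9, 21.8, 21.1 and 21.9, and Arnt at 14.9, 14.5, 13.7 and 14.7. Nr3c1, the glucocorticoid receptor, was at 13.5 in water, 15.4 with Dex, 16.8 with DMOG and 21.5 with both, at 1.12 times the product (counting interval 1.04 to 1.21, limma joint adjusted p = 0.263).

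Egln1, which encodes the main HIF prolyl hydroxylase PHD2, was at 8.41 in water, 9.57 with Dex, 13.4 with DMOG and 16.5 with both, while Egln2 was at 36.2, 39.1, 33.96 and 29.8. Epas1, the HIF2 alpha gene, was under 1 RPKM in all 4 libraries (0.15, 0.020, 0.14 and 0.12). Of the 30 measured JmjC and other 2-oxoglutarate dioxygenases, the wider enzyme class that DMOG can inhibit, 3 were past 2-fold up with both agents (Egln3, P4ha1 and P4ha2) and 0 down. All 3 also stand on the HIF list. P4ha2 was at 0.31 in water, 0.74 with Dex, 0.67 with DMOG and 1.78 with both. It thus passed the 1 RPKM filter only through the library where it was high, and limma did not test it. No member of the lists for ribosome biogenesis (22), oxidative phosphorylation (26), replication and mitosis (28), cell cycle inhibitors (12), immediate early genes (10), the ATF4 response (25), sterol and fatty acid synthesis (22) or inflammatory genes (4) was past 2-fold either way.

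**Figure D5:**
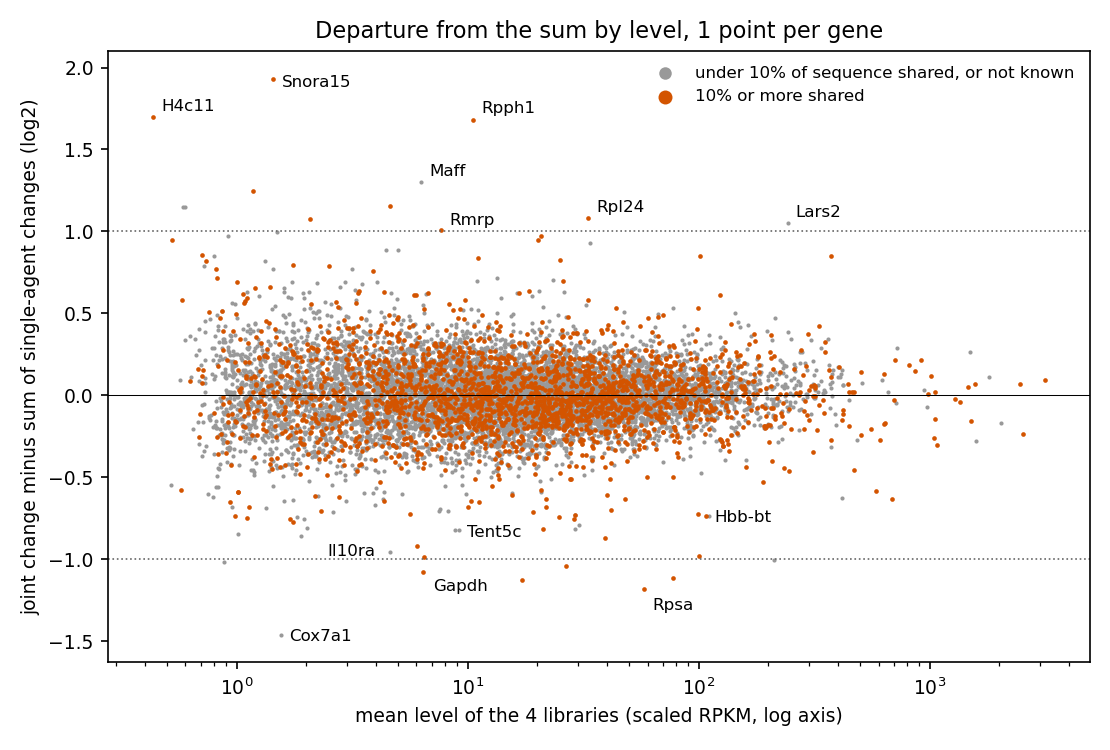
Each point is 1 gene, with the mean level of the 4 libraries in scaled RPKM on a log axis and the departure from the sum in log2 units on the vertical axis, and orange points are genes with 10% or more of their sequence shared. Of the 12 genes above and 8 below the dotted 2-fold lines, 7 and 2 had a mean level under 5 (2316 genes). At 5 to 20 there were 3 and 2 (3631 genes), and at 20 or more 2 and 4 (3928 genes). Of the 18 with known sharing, 13 are orange.

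Of the 12 genes whose departure passed 2-fold up, 8 of the 11 with known sharing had 10% or more of their sequence in common with other genes, and of the 8 past 2-fold down, 5 of 7. Over all genes with known sharing it was 24.4%. The SD of the departure was 0.19 in genes with under 10% shared, 0.25 in those with 10% or more and 0.32 in those with 50% or more. Among the 12 were Rpl24, a ribosomal protein, at 18.0 in water, 25.5 with Dex, 21.98 with DMOG and 66.7 with both, and Rpph1, at 24.3, 6.76, 5.55 and 5.45. Rpph1 was high in the water library alone, so both single changes and the joint change were negative and the departure (1.68) positive. Rmrp (13.6, 6.13, 5.51 and 5.40), the RNA of RNase MRP, and the mitochondrial leucyl-tRNA synthetase gene Lars2 (372.9, 197.3, 189.8 and 208.4) had the same shape. Lars2 had 1.14% of its sequence shared. Maff was thus 1 of 3 genes with under 10% shared above the line, with Lars2 and 1700001P01Rik.

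Below the 2-fold line, Rpsa was at 70.6 in water, 50.2 with Dex, 85.2 with DMOG and 26.2 with both, and Rps7, also a ribosomal protein, at 78.8, 100.4, 82.1 and 47.8. Both were lowest in the library with both agents. Gapdh, a glycolysis enzyme gene with 83.6% of its sequence shared, was at 4.00, 3.51, 13.0 and 5.01. The 2 genes with under 10% shared were Cox7a1, a muscle-type cytochrome oxidase subunit at 0.73, 2.74, 1.67 and 1.09, and Cyp1a1, a xenobiotic-metabolising enzyme at 0.57, 1.03, 1.39 and 0.52. Cox7a1 and Cyp1a1 were low in all 4 libraries.

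Classes of RNA that stood out among these extremes, chosen after the values were seen, were described over all their measured genes. Of 19 replication-dependent histone genes, which make mRNA without a poly(A) tail, 15 were highest in the water library (78.9%, against 23.4% of all genes). Their median joint change was -0.51 and their median departure 0.25. Median levels were near the filter of 1 RPKM, at 1.68 in water, 1.29 with Dex, 0.86 with DMOG and 0.85 with both. Members such as H4c11 (1.37, 0, 0 and 0.37) entered through the water library alone, which favours water as the highest. All 19 had known sharing, and 16 were shared. Of 82 cytosolic ribosomal protein genes, 7 were past 2-fold down and 1 up with both agents, with a median departure of -0.17 and an SD of 0.40. Of the 81 with known sharing, 76 were shared. The part of sequence sharing and of library preparation in these values was not tested.

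Summed levels of markers of other cell types differed by less than 1.6-fold over the 4 libraries. The summed level of 20 neutrophil and mast cell markers was 6.87 to 7.76, with Ltf, Ngp, Mcpt4 and Fcer1a at 0 in all 4, and that of 11 macrophage markers 1.098 to 1.523, with C1qa and C1qc at 0 and none at 1 or more. The 14 megakaryocyte markers summed to 81.3 to 83.0 (Selp at 0), but single members moved within that sum. Itgb3, given above, rose, while 8 of the 11 members at 1 or more RPKM had a joint change below 0 (4949 of all 9875 genes), with a median of -0.19. The 12 lymphoid markers summed to 2.13 to 3.25 (Cd3e and Dntt at 0), the 12 hepatocyte to 15.2 to 19.0 and the 9 endothelial to 12.1 to 13.2. Among sort markers Kit and Tfrc, the CD71 gene, were high in all 4 libraries, with Tfrc at 264.5 in water, 196.2 with Dex, 271.1 with DMOG and 207.5 with both.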

How the data were processed

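RNA-seq of cultured BFU-E was analysed in 4 libraries, with 2 more for a test. The authors deposited RPKM per RefSeq transcript record (23041), aligned to mm9 per the submitters' processing notes. Aligner, counting tool, strand and the treatment of multiply matching reads are not given in the sources used here. Paired-end libraries came from 300 bp bands, per the labels' protocols. In the 4 files 5954 to 7412 records stand at exactly 1 and none at 0; in the other 5 files 7240 to 8929 stand at 0 and none at exactly 1. An exact 1 was therefore read as 0.

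Symbols came from RefSeq (GRCm38.p6, 22393 records) and GENCODE (118); 530 records had none. For the 2158 names with several records the one with the highest mean was used. Libraries were divided by median-ratio factors (0.989 to 1.02, 9425 genes). Changes are on log2(RPKM + 1); a call within the 4 libraries means at least 2-fold, by size alone.

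Depth was recovered from steps between low RPKM values, with transcript lengths from GRCm38: among values of up to 10 reads, 67.0% to 70.0% fell within 0.1 of a whole read (20% by chance). The best score at a clearly different depth was 64.3% for water, 66.1% for Dex, 67.5% for DMOG and 38.8% for both. This score therefore does not settle the depths of water, Dex and DMOG. For a transcript of 1 kb, 3 reads equal 0.0569 to 0.163 RPKM. Exact 95% intervals of ratios (binomial, and conditional odds ratio of 4 counts) rest on the recovered depths. They cover counting error alone, as PCR duplicates are no independent molecules. The count test was not run on these reads. Sharing is the portion of the 32-base words in a gene (1 in 4 sampled) also occur in another gene or pseudogene, in percent.

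limma 3.58.1 (R 4.3.3; trend, 1 residual and 4.75 prior degrees of freedom, genes with a mean of at least 1 RPKM over 6 libraries) fitted sort and Dex to the 4 libraries without DMOG and a mean each to the 2 with it. Nothing in the labels says that libraries are separate cultures, so p-values measure the spread between these libraries, which may be technical. Scripts were tested on simulated data. Named genes were the 12 highest and 12 lowest joint changes, the 10 highest and 10 lowest departures whose interval excludes 1 and whose sign holds, up to 6 members of each list by joint change and 3 by departure, and a fixed set of regulators; Narf, Ak4, Bhlhe40, Arl4a, Frmd4a, Clstn1, Enah, Thbs1, Cited4, Syne1, Actg1 and Rps28 were named after their values were seen. The result of 1 gene past the joint test is not reported here. The members and lists were chosen with earlier results of these data known. Alternatives were other pseudocounts, filters, scalings, records and readings of the exact 1, and, chosen after seeing the data, genes with little shared sequence.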

Additional observations from a re-analysis of the deposited data

How the results depend on the processing

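No paired analysis was possible because each condition of the 4 is 1 library and the labels carry no replicate numbers; the limma fit holds the sort as a term over the water and Dex libraries of both sorts, which pairs no replicates. No library of the 4 could be left out either, since each is a whole condition. Genes at least 2-fold higher or lower with both agents numbered 73 and 33, and 125 and 83 with a pseudocount of 0.1; 55 were lower with 0.5, and 11 were lower among genes with under 10% shared sequence. Departures past 2-fold above and below, 12 and 8, became 45 and 36 with a pseudocount of 0.1, 22 and 14 with 0.5, 136 and 182 with the exact 1 kept, and 3 and 2 among genes with little shared sequence; 6 lay above with 5 or more RPKM in any library, and 6 with 1 or more in all. The median departure of genes with a Dex part past 2-fold down, -0.47, was -0.036 and -0.054 with pseudocounts of 0.1 and 0.5, -0.17 without scaling and with the exact 1 kept, -0.73 at 5 or more RPKM, and 0.040 (7 genes) with little shared sequence; that of joint changes past 2-fold down, -0.20, was 0.22 there. For genes with both parts past 2-fold up it was -0.40 (4 genes), and -0.053 (8 genes) with a pseudocount of 0.1, while the departures of the first 4 moved away from 0 (Egln3 -0.77, Ddit4 -0.35, Il10ra -1.79, Slc30a10 -0.71). limma's joint counts of 31 higher and 4 lower became 0 and 0 with no filter, 111 and 53 without scaling, and 17 and 0 without the trend; of the 35 genes, 29 were still called with a pseudocount of 0.1, 28 at a mean of 5 or more RPKM (7 not tested), 35 without scaling and 17 without the trend. The limma departure had 0 calls in all 5 alternatives (147 to 731 at an unadjusted p under 0.05). H4c11 had a departure of 1.70, and -0.30 with the exact 1 kept. The cause of these moves was not tested. At 3 reads on 1 kb the water library reads 0.163 RPKM, so departures of genes near 1 RPKM are poorly fixed.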
